A study of Saccharomyces cerevisiae with 3 samples.

Results

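The genes described here encode 10 amino acid permeases of budding yeast: PUT4, GAP1, AGP1, GNP1, BAP2, BAP3, TAT1, TAT2, MUP1 and CAN1. They were found by their symbols in the gene annotation of the array, and all 10 were measured, among 4069 named genes in all. PUT4 was picked for its ratio on these arrays, and the other 9 permeases were set beside it, so that the ratios of all 10 are given as a description, with no p-value and nothing read from their calls. Cultures of the wild-type strain BY4741, 3 in number and independent, were grown in YPD rich medium, and each gave 1 two-colour array. On each array, RNA from cells in 0.4 M NaCl for 15 minutes (Cy3) was set against RNA from untreated cells (Cy5), where the time is that of the labels and the methods and the text of the study's results gives a shorter one. BY4741 is a haploid strain (MATa his3-Δ1 leu2-Δ0 met15-Δ0 ura3-Δ0), so that stressed and untreated cells alike depend on histidine, leucine, methionine and uracil from the medium. The 3 arrays carried the same dye orientation, and a dye effect particular to a gene cannot be told apart from an effect of NaCl.

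The deposited values are normalized ratios per spot whose log base and direction are not stated with them. All 385 named genes of the study's osmoresponsive table, which holds genes past a fold threshold on these arrays, were above 0 on every array. Their lowest mean value was 0.72, beside 0.81 for the log2 of that threshold. On this basis the values were taken as log2 ratios with NaCl on top, and a positive ratio means more transcript in NaCl, relative to the other transcripts. The median over all named genes lay between -0.023 and -0.0010 on the 3 arrays, and a rise or fall of the whole transcriptome at once would be lost in such centred ratios. HIS3, LEU2, MET17 and URA3, which are deleted in this strain in whole or in part, stayed within 0.21 of 0 on every array.

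Amino acid permeases are transporters of the plasma membrane that carry amino acids into the cell together with protons. Put4 has a high affinity for proline, which yeast uses as a nitrogen source after 2 steps of oxidation in mitochondria, and proline is also a compatible solute in several organisms. Gap1 takes up nearly all amino acids and its gene is kept low by good nitrogen sources through GATA transcription factors. Many of the remaining permease genes respond instead to amino acids outside the cell, through the sensor complex of Ssy1, Ptr3 and Ssy5 (SPS) and the transcription factors Stp1 and Stp2.

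PUT4 (YOR348C) was by far the highest of the 10 permease genes upon osmostress. Its log2 ratio was 6.37 on replicate 1, 7.25 on replicate 2 and 6.91 on replicate 3, a mean of 6.84 ± 0.45 (SD, n = 3) or 115-fold. Intensities were not analysed here, so whether dim or saturated spots bear on the size of this fold could not be told. On each array PUT4 lay above each of the other 9 permease genes of this set by at least 4.83 on the log2 scale. It ranked 4 among all 4069 named genes, where STL1, the glycerol symporter gene, was the highest at 8.04. PUT4 is the only permease gene of the 10 in the study's list of Hog1-dependent genes. That list was drawn from genes induced on these arrays and is no independent evidence of the rise of PUT4. Its criterion of dependence on Hog1 was taken, by the paper's methods, from an earlier study.

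Permeases of broad specificity followed. GAP1 (YKR039W), the general amino acid permease gene, had log2 ratios of 1.54, 1.28 and 1.33 on replicates 1, 2 and 3, a mean of 1.38 ± 0.14 (SD, n = 3) or 2.61-fold. GNP1 (YDR508C), whose product carries glutamine and other polar amino acids, had 1.05, 0.84 and 0.83, a mean of 0.91 ± 0.12 or 1.87-fold. These genes kept close to their means on every array. AGP1 (YCL025C), which encodes the broad-range permease most related to Gnp1, had 1.05, 0.66 and 0.42 on replicates 1, 2 and 3, a mean of 0.71 ± 0.32 or 1.63-fold. AGP1 and GNP1 were equal on replicate 1 and parted on replicates 2 and 3, where GNP1 was the higher gene. GAP1 and GNP1, with PUT4, are the permease genes of the study's osmoresponsive table.

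Genes of branched-chain and aromatic amino acid uptake pointed in different directions. BAP2 (YBR068C), which encodes a leucine, isoleucine and valine permease, had log2 ratios of 0.96, 0.51 and 0.14 on replicates 1, 2 and 3, a mean of 0.53 ± 0.41 (SD, n = 3). Its relative BAP3 (YDR046C), with overlapping substrates, had -0.19, -0.31 and -0.33, a mean of -0.28 ± 0.08. BAP2 was positive and BAP3 negative on every array, and BAP2 exceeded BAP3 by 1.15, 0.81 and 0.47 on the 3 arrays, a mean of 0.81 ± 0.34. TAT2 (YOL020W), the gene of the high-affinity tryptophan permease, was the lowest of the 10, at -0.23, -0.57 and -1.06 and a mean of -0.62 ± 0.42 or 0.650-fold. TAT1 (YBR069C), which encodes a permease of tyrosine and tryptophan, had 0.03, -0.39 and -0.38, a mean of -0.25 ± 0.24, and was the only member with both signs. The spread of BAP2 and TAT2 over the arrays was several times that of BAP3.

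Of the permeases for basic and sulfur amino acids, CAN1 (YEL063C), the arginine permease gene, had log2 ratios of 0.52, 0.58 and 0.49 on replicates 1, 2 and 3. Its mean of 0.53 ± 0.05 (SD, n = 3), or 1.44-fold, had the smallest spread of the 10 genes. MUP1 (YGR055W), which encodes the high-affinity methionine permease, had 0.32, 0.35 and 0.19, a mean of 0.29 ± 0.09 or 1.22-fold. The value of MUP1 on replicate 3 is above every value of a deleted marker gene but smaller in size than the lowest of them, -0.21 for URA3 on replicate 2.

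**Figure D1:**
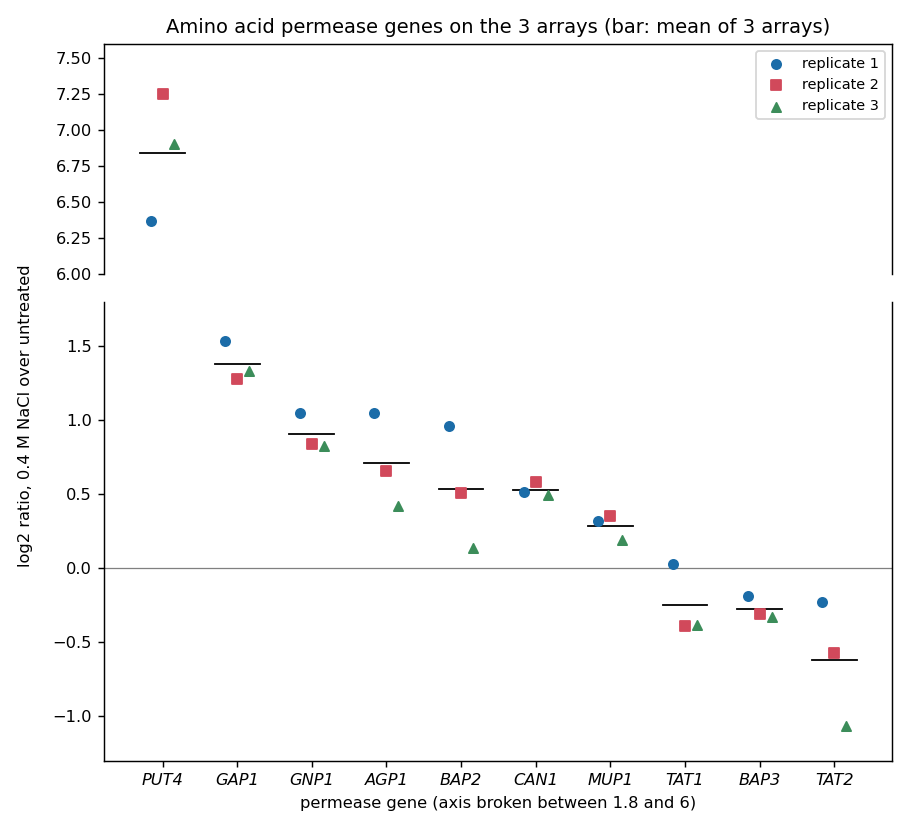
Log2 ratio of 0.4 M NaCl over untreated cells (vertical axis, broken between 1.8 and 6) for the 10 permease genes, ordered by their mean, with a symbol for each of 3 arrays and a bar for the mean. PUT4 sits between 6.37 and 7.25, while the other 9 genes lie between -1.06 and 1.54.

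Set against the other 9 permeases, PUT4 stood apart on each array. The median of the 9 was 0.52, 0.51 and 0.19 on replicates 1, 2 and 3, and PUT4 exceeded this median by 5.85, 6.75 and 6.72, a mean of 6.44 ± 0.51 (SD, n = 3) or 86.7-fold. Over the next gene, GAP1, its excess was 5.46 ± 0.58 or 44.0-fold. Below PUT4, the steps between neighbours in the order were small. The order was set by these same means, so each mean step is positive by construction, and none was tested. GAP1 lay above GNP1 by 0.48 ± 0.03 and CAN1 above MUP1 by 0.24 ± 0.05. MUP1 lay above TAT1 by 0.53 ± 0.23 and AGP1 above BAP2 by 0.17 ± 0.10. All these differences were positive on every array. The steps from GNP1 to AGP1 (0.20 ± 0.20) and from BAP2 to CAN1 (0.00 ± 0.40) were no larger than their SD over the arrays. The same held from TAT1 to BAP3 (0.03 ± 0.16) and from BAP3 to TAT2 (0.35 ± 0.35). BAP3 still lay above TAT2 on every array, by 0.04, 0.26 and 0.73, and GNP1 above AGP1 on replicates 2 and 3, by 0.18 and 0.40. The differences of BAP2 and CAN1 and of TAT1 and BAP3 changed sign between arrays.

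Of the 10 permease genes, 7 were above 0 on every array, 2 were below 0 on every array and TAT1 was mixed. Among all named genes, 49.4% had a mean above 0, and the share above 0 on every array was not counted. By limma with Benjamini-Hochberg adjustment over 4069 genes, 7 of the 10 passed the threshold of 0.05 upwards and 2 downwards (BAP3 and TAT2), beside 26.9% of all named genes upwards and 27.9% downwards. Without replicate 2 or without replicate 3, 1 passed downwards, since BAP3 no longer did. Upwards, 6 passed without replicate 2. Of all named genes, 777 rose and 695 fell without replicate 2, and 1024 fell without replicate 3. A mean above the study's fold threshold was found for 3 of the 10 (PUT4, GAP1 and GNP1), beside 9.34% of all genes. The median of the gene means was 0.53 for the 10 permeases and -0.01 for all named genes. The members were chosen with this contrast known, and nothing is read from these counts. Next to PUT4, GAP1 ranked 161 and GNP1 ranked 319 from the top of all named genes, and TAT2 ranked 445 from the bottom.

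**Figure D2:**
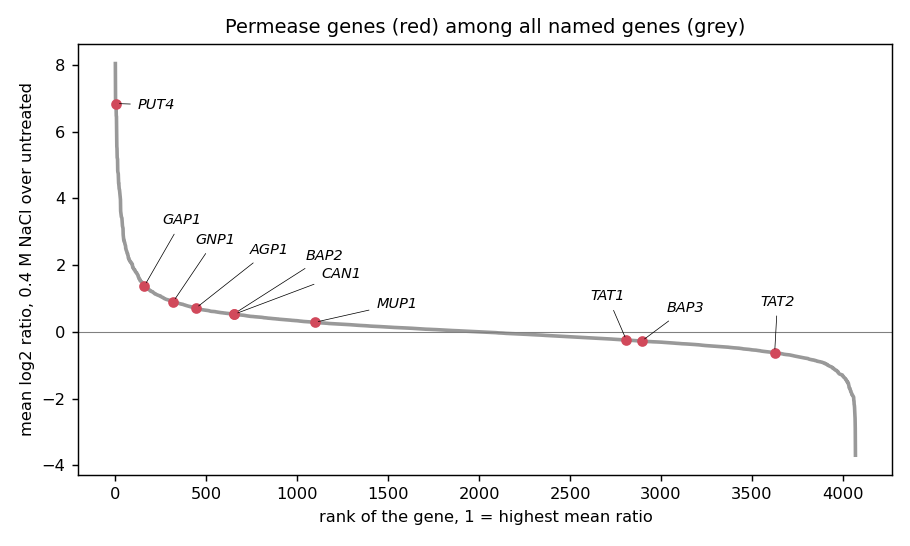
Mean log2 ratio of 0.4 M NaCl over untreated cells (vertical axis) against the rank of the gene (horizontal axis, 1 is the highest) for all 4069 named genes (grey line), with the 10 permease genes as red points. PUT4 ranks 4, the other 9 genes lie at ranks from 161 to 3625, and TAT1, BAP3 and TAT2 are below 0.

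The order of the arrays differed between the permease genes. Of the 10 genes, 7 had their highest ratio on replicate 1, 3 on replicate 2 and none on replicate 3. Over all named genes, the highest ratio was on replicate 1 for 42.4%, on replicate 2 for 21.9% and on replicate 3 for 35.7%. It was on replicate 1 for 9 of the 10 further permease genes and 11 of the 12 transporters of other nitrogen compounds. For permease folding, sorting and turnover it was there for 1 of the 12 genes. These lists are described further on. PUT4 went the other way, with its lowest value on replicate 1, as had 41.6% of all named genes. STL1 was lowest there too, at 7.42 against 8.37 and 8.33. Replicate 1 also stood further from the other arrays across all named genes, which are not independent replicates, with a Pearson's correlation of 0.931 to replicate 2 and 0.890 to replicate 3, against 0.971 for replicates 2 and 3. The part of replicate 1 in the spread of the permease ratios was not tested.

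Each permease gene was read by 7 spots on every array, which shows how much of its spread lay within an array, though it is not known here whether these spots carry the same probe. Outside PUT4, the SD between the spots of a gene was from 0.04 to 0.17. The 7 spots of BAP2 were from 0.86 to 1.02 on replicate 1, from 0.38 to 0.61 on replicate 2 and from 0.03 to 0.24 on replicate 3. Those of TAT2 were from -0.37 to -0.06, from -0.74 to -0.47 and from -1.19 to -0.89. For both genes the spots of the 3 arrays did not overlap, so that the arrays differed by more than the spots within them. The spots of CAN1, from 0.46 to 0.58, from 0.53 to 0.65 and from 0.33 to 0.60, overlapped throughout. On replicate 1 a single spot of PUT4 read 5.42 while the highest read 6.68. By the median of spots, PUT4 stood at 6.55 on replicate 1, 7.23 on replicate 2 and 6.87 on replicate 3, in the same order as by the mean. Spots of closely related genes, such as BAP2 and BAP3 or AGP1 and GNP1, may measure part of each other's transcript.

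**Figure D3:**
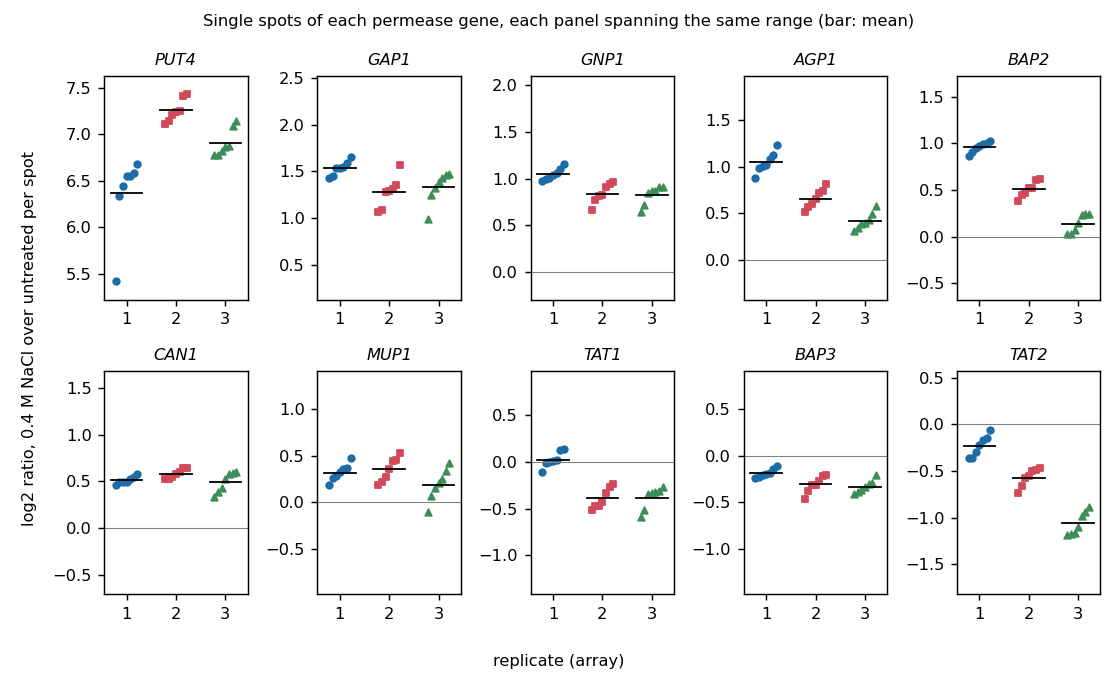
Log2 ratio of 0.4 M NaCl over untreated cells for each of the 7 spots of a permease gene (vertical axis) on each of 3 arrays (horizontal axis). Spots are sorted within an array, with a bar for the mean. The vertical axis has the same span in every panel but is centred on each gene's own values, so heights cannot be compared between panels. The spots of BAP2 and TAT2 separate by array, those of CAN1 overlap, and PUT4 has a single low spot at 5.42 on replicate 1.

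Chromosomal neighbours of PUT4 did not share its ratio. In the order of protein-coding genes of the R64 assembly, PUT4 lies between PYK2, which encodes a pyruvate kinase, and CIN1, which encodes a tubulin folding factor. PYK2 had log2 ratios of 0.29, 0.26 and 0.15 and did not pass the test (adjusted p = 0.0636 from limma), and CIN1 rose, with 0.60, 0.88 and 0.99 and a mean of 0.82 ± 0.20 (SD, n = 3, adjusted p = 0.000411). BAP2 and TAT1 are neighbours of each other, and BAP2 lay above TAT1 by 0.93, 0.89 and 0.52 on the 3 arrays. The 4 genes whose ratios were nearest to those of PUT4, by the Euclidean distance over 3 arrays, were CTT1 of cytosolic catalase (distance 0.28), PHM7 (0.44), the aldehyde dehydrogenase gene ALD3 (0.48) and the hexose transporter gene HXT5 (0.67). Nearest to TAT2 were MMP1 (0.12), which encodes a permease of S-methylmethionine, the siderophore transporter gene ARN1 (0.16), OXA1 of mitochondrial membrane insertion (0.17) and the histidine permease gene HIP1 (0.18).

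Among 10 further amino acid permease genes of the plasma membrane, 2 rose, 4 fell and 4 did not pass the limma test, beside 26.9% of all named genes that rose and 27.9% that fell, with a median of -0.14. AGP2, which encodes a transporter and regulator of carnitine and polyamine uptake, rose by 1.72 ± 0.26 (SD, n = 3, adjusted p = 1.21e-05), with 1.88, 1.86 and 1.43 on the 3 arrays. It was above GAP1 on each array and thus second to PUT4 among the 20 permease genes of both lists, 5.12 ± 0.55 below it. MMP1 fell by 0.63 (adjusted p = 0.00501), and MUP3, a low-affinity methionine permease gene, fell by 0.62 (adjusted p = 0.00242). MUP1 lay above MUP3 on every array, by 0.91 ± 0.22. HIP1 had log2 ratios of -0.26, -0.55 and -0.89 and fell by 0.56 on the mean (adjusted p = 0.00679). Over the 20 genes the median was 0.03, near that of all named genes.

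Genes of proline breakdown and synthesis lay far below PUT4. Of 6 genes, none rose, 4 fell and 2 missed the limma threshold, beside 26.9% of all named genes that rose and 27.9% that fell, and their median was -0.31. PUT1, the proline oxidase gene, had log2 ratios of -0.47, -0.23 and -0.31, a mean of -0.34 ± 0.12 (SD, n = 3, adjusted p = 0.0188). PUT2, which encodes the next enzyme of proline breakdown, had 0.20, 0.13 and 0.27 and did not pass (adjusted p = 0.101). PUT3, the activator gene of PUT1 and PUT2, had -0.34, -0.27 and -0.27 (adjusted p = 0.0260). PUT4 therefore exceeded PUT1 by 7.18 ± 0.33, PUT2 by 6.64 ± 0.48 and PUT3 by 7.13 ± 0.41 on the log2 scale. Of proline synthesis, PRO1, the glutamate kinase gene, fell by 0.54 (adjusted p = 0.00236) and PRO3, the gene of the last step, fell by 0.44 (adjusted p = 0.00498). Without replicate 2, only 1 of the 6 fell, as PUT1 (adjusted p = 0.0996), PUT3 (0.212) and PRO3 (0.0616) did not pass, and without replicate 3 PUT3 did not pass (0.0796).

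Counts of the regulators of permease genes stand beside the shares of all named genes that rose (26.9%) or fell (27.9%). Of 5 genes of GATA factors and their control, GAT1 alone rose (0.96 ± 0.22, SD, n = 3, adjusted p = 0.000202 from limma), an activator gene of GAP1 and other nitrogen genes, and the other 4 missed the threshold with means from -0.14 to 0.09. Of 12 genes of amino acid sensing by the SPS pathway, 4 rose, 3 fell (1 without replicate 2) and 5 missed the threshold, with a median of 0.19, counts near those shares. STP2, which encodes a transcription factor of permease genes, rose by 0.57 ± 0.12 (adjusted p = 0.00164). ASI2 and ASI3, whose products keep Stp1 and Stp2 out of action in the nucleus, rose by 0.88 (adjusted p = 0.000826) and 0.45 (0.00414), and ASI1 of the same complex fell by 0.58 (0.00162).

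Transporters of other nitrogen compounds, uracil and uridine permeases among them, covered a wider range than the 9 permeases beside PUT4. Of 12 such genes, 6 rose, 4 fell (2 without replicate 2) and 2 missed the limma threshold, beside 26.9% of all named genes that rose and 27.9% that fell, with a median of -0.02. The ammonium transporter gene MEP1 rose by 2.32 ± 0.29 (SD, n = 3, adjusted p = 3.07e-06) and the uracil permease gene FUR4 by 1.16 ± 0.28 (adjusted p = 0.000125), while the uridine permease gene FUI1 fell by 1.29 (adjusted p = 3.94e-05) and the purine and cytosine permease gene FCY2 fell by 0.89 (adjusted p = 0.000387). Of permease folding, sorting and turnover, 12 of 17 genes carried a name on the array, of which 5 rose and 4 fell (3 and 2 without replicate 2 and also without replicate 3), beside the same shares of all genes, with a median of 0.19. CSR2 and ROD1, which encode adaptors of the ubiquitin ligase Rsp5, rose by 1.25 ± 0.25 (SD, n = 3, adjusted p = 6.66e-05) and 0.97 ± 0.16 (adjusted p = 0.00013), and DOA4 of a ubiquitin protease of the endosome rose by 0.88 ± 0.16 (adjusted p = 0.000216). BUL2, which encodes another Rsp5 adaptor with a part in the sorting of Gap1, fell by 0.74 (adjusted p = 0.000336). Of 14 transporters listed for the vacuole, only ATG22 was measured under a name here, and it rose by 0.67 ± 0.22 (adjusted p = 0.0014).

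**Figure D4:**
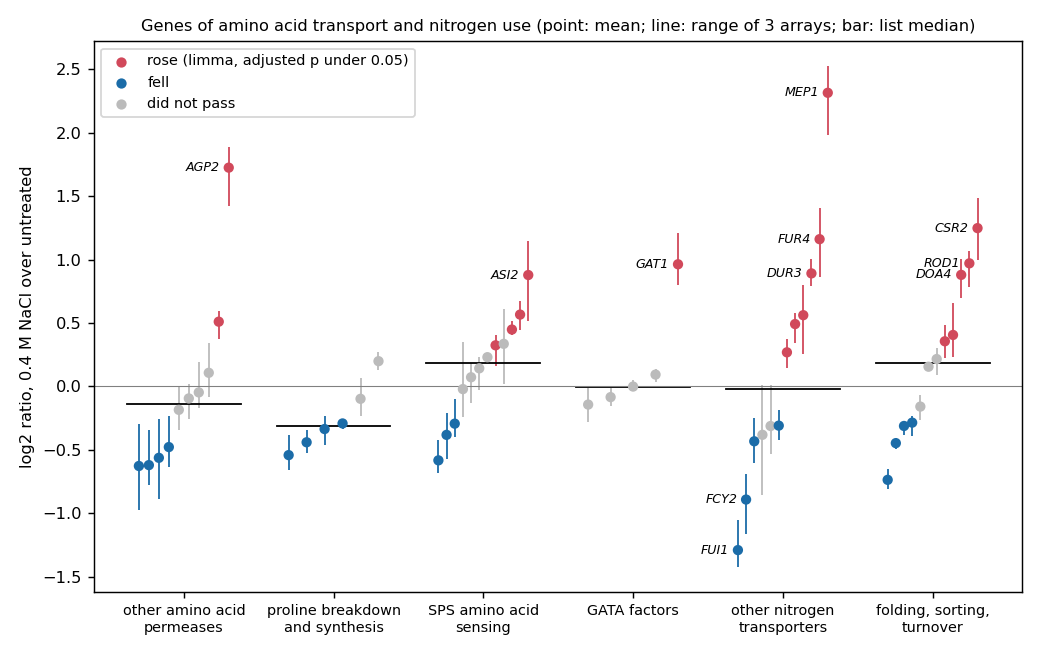
Log2 ratio of 0.4 M NaCl over untreated cells (vertical axis) for genes of 6 lists of amino acid transport and nitrogen use (horizontal axis), with a point for the mean of 3 arrays, a vertical line for their range and a bar for the median of the list. Red genes rose and blue genes fell by limma at an adjusted p under 0.05, grey genes did not pass, and MEP1 at 2.32 is the highest gene shown, far below PUT4 at 6.84, which is not drawn.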

How the data were processed

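The authors deposited 1 normalized ratio for each spot of an array, with no log base stated and taken here as log2, and the submitters' processing notes name limma as their tool. No source used here gives its version, the correction for background, how arrays were normalized or whether spots were filtered. Intensities were not analysed here, so that dim or saturated spots could not be told. The annotation of the platform named the genes (28532 of 45220 spots with 1 symbol, none with several), and the R64 gene table brought symbols up to date and gave the order of genes. For each array, the mean over the spots of a gene was taken. limma (version 3.58.1, R 4.3.3) fitted an intercept to the 3 ratios of each of 4069 genes, with empirical Bayes and two-sided p-values under Benjamini-Hochberg adjustment at 0.05, a step that was tested on simulated data. A gene is said to have risen or fallen only if it passed. P-values set each gene's mean over these 3 cultures against a spread that empirical Bayes draws towards that of all genes. The number of arrays limits the precision.

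The members and 7 further gene lists were chosen with earlier results of these data known. Genes named besides the members are up to 4 of each further list that passed with the largest change, the largest that passed against most of its list, PUT1 to PUT3, the 4 nearest to PUT4 and to TAT2, and STL1. The neighbours CIN1 and PYK2 were added with their values in view. Comparisons of protein and promoter sequences were not run. Alternatives were other centring or scaling of the arrays, medians over spots, each replicate left out, a robust fit, a threshold of 0.01 and single spots.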

Additional observations from a re-analysis of the deposited data

How the results depend on the processing

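The excess of PUT4 over the median of the other 9 permeases was 6.44 and stayed from 6.28 to 6.73 when a replicate was left out. No value of a permease or a named list gene changed its sign under any alternative run. Of 23 named genes of the further lists, PUT1, PUT3 and PRO3 lost their call under at least 1 alternative. At a threshold of 0.01, 5 permeases passed upwards in place of 7, and 1 downwards in place of 2. At this threshold 808 of all 4069 named genes passed upwards and 774 downwards, which is the background for the list counts that follow too. The genes that fell were 2 of proline metabolism and 1 of the SPS list. In the SPS list 3 rose, and of the other nitrogen transporters 5 rose and 3 fell. At the same threshold, 3 genes of folding, sorting and turnover rose and 2 fell. A stricter limit can only lower a count or leave it unchanged. With spots tested singly, 1 permease passed downwards, beside 1073 of all named genes, and the cause was not tested. With a replicate left out, the downward counts were from 1 to 3 for the permeases, from 1 to 4 for proline metabolism, from 1 to 3 for the SPS list, from 2 to 6 for other nitrogen transporters and from 2 to 4 for folding and turnover, where from 3 to 5 rose. Over all named genes, from 695 to 1340 fell and from 777 to 1282 rose. The lower end came without replicate 2 in each case, and also without replicate 3 for the permeases and for folding and turnover, and the cause was not tested. The fit was already a paired one, since each ratio sets both conditions of 1 array against each other. The labels give 1 group of arrays, and no further pairing was possible. The number of arrays limits what can be seen near 0, and dim spots could not be told from bright ones.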
